A study of Drosophila melanogaster with 24 samples.

Results

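The genes examined were the 44 protein-coding genes of Drosophila melanogaster whose symbols begin with eIF, for eukaryotic translation initiation factor, among 13922 protein-coding genes on the chromosome arms 2L, 2R, 3L, 3R, 4 and X (dm6 assembly). The rule used the symbol and no measured value, and the gene set was picked for study with earlier results of these data known. A list written for this work set 10 of them apart as paralogues, meaning extra copies of a factor that are described as testis- or germline-biased or have no assigned general role: eIF3d2, eIF3f2, eIF3g2, eIF4E3, eIF4E4, eIF4E5, eIF4E6, eIF4E7, eIF4G2 and eIF4H2. The other 34 were taken as general factors.

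Translation initiation factors bring the ribosome to the start codon of an mRNA. The eIF2 complex delivers the initiator tRNA and is recharged by the exchange factor eIF2B, eIF3 organises the small ribosomal subunit, and the cap-binding protein eIF4E joins the scaffold eIF4G and the helicase eIF4A on the mRNA. Drosophila carries several copies of eIF4E, eIF4G and eIF3 subunits, some of which act in spermatogenesis, and regulated translation of stored mRNAs is a hallmark of the germline.

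The study mapped proteins on DNA in ovaries with CUT&RUN, in which a nuclease tethered to an antibody releases the DNA around its target. Lists of occupied intervals were used for 3 of 24 samples: Stwl in bam GKD ovaries, labelled as undifferentiated stages, Stwl in WT ovaries, labelled as differentiated stages, and BEAF in WT ovaries. Stwl, encoded by stonewall, is a DNA-binding protein required in the female germline, BEAF is a boundary element protein, and bam encodes a factor that starts germline differentiation. The labels use both bam GKD and BamRNAi for the knockdown genotype, and the sources used here do not give the driver of the knockdown or the age of the flies. Each group had 1 sample and 1 list.

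On the arms the lists held 12857 intervals for Stwl in bam GKD, 8576 for Stwl in WT and 5083 for BEAF in WT, with median widths of 807 bp, 721.5 bp and 236 bp. The intervals carry no score and read depth is unknown, so width is the only measure of size. With 1 list per group no value has a replicate error and no test between groups was made. Around the chorion genes, 1 interval of 81541 bp on 3L and 1 of 50884 bp on X stood in the bam GKD list, where WT had 72696 bp and 62801 bp. Chorion genes belong to follicle cells of late stages, which the bam GKD label does not name, and the part of this in the values below was not tested.

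A gene was called when an interval touched a window reaching 500 bp out and 500 bp in from one of its annotated ends. Stwl was called at 27 of the 44 initiation factor genes in bam GKD, a share of 61.4%, which equals the 61.4% of all protein-coding genes called in that list. In WT it lay at 33 (75%), where 55.7% of all protein-coding genes were called. BEAF lay at 21 (47.7%), where 28.1% of all were called. All 3 lists met at 17 members, or 38.6%, beside 24.3% of all genes, and 10 members (22.7%) had no interval at an end in any list, beside 31.3% of all. Counting intervals inside the gene as well, 9 members (20.5%) had none, beside 28.8% of all.

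Both ends of a gene were occupied by Stwl at 11 members in bam GKD (25%, beside 28.5% of all genes) and at 16 in WT (36.4%, beside 22.6%), and by BEAF at 8 (18.2%, beside 5.73%). Only 1 end was occupied at 16 members in bam GKD (36.4%, beside 32.9%), at 17 in WT (38.6%, beside 33.1%) and at 13 for BEAF (29.5%, beside 22.4%). Most of the excess over all genes in the WT lists lay at members with both ends occupied, among them eIF1, eIF3c, eIF3f1, eIF3l and eIF4E1, which had Stwl and BEAF at both ends. An interval touched the gene body itself at 21 members in bam GKD (47.7%, beside 48.3%), at 25 in WT (56.8%, beside 45.7%) and at 20 for BEAF (45.5%, beside 22.9%). Of the 88 member ends, 38 had Stwl in bam GKD (43.2%, beside 44.9% of all ends), 49 had Stwl in WT (55.7%, beside 39.2%) and 29 had BEAF (33%, beside 16.9%).

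General factors were called more often than paralogues in each list. In bam GKD, Stwl lay at 24 of 34 general factors (70.6%) and at 3 of 10 paralogues (30%), beside 61.4% of all genes. In WT it lay at 29 general factors (85.3%) and at 4 paralogues (40%), beside 55.7% of all genes. BEAF lay at 18 general factors (52.9%) and at 3 paralogues (30%), and that share of paralogues is close to the 28.1% of all genes. Of the 10 members with no interval at an end, 5 were general factors (14.7% of that class) and 5 were paralogues (50%), beside 31.3% of all genes. The 3 shares of the paralogues rest on few genes, and the difference between the classes was not tested.

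**Figure D1:**
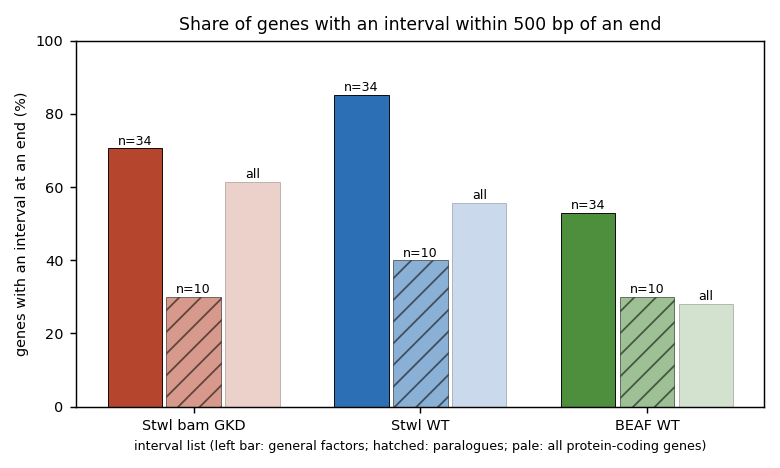
Bars give the percentage of genes with an interval within 500 bp of an end, for 34 general factors (left bar), 10 paralogues (hatched) and all 13922 protein-coding genes (pale), in each of the 3 lists; there is 1 list per group and so no error bar. General factors stood at 70.6%, 85.3% and 52.9%, and paralogues at 30%, 40% and 30%, beside 61.4%, 55.7% and 28.1% of all genes.

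The state of every member is drawn in the grid of genes by list. The members lie on all 6 arms: 3 on 2L, 9 on 2R, 11 on 3L, 13 on 3R, 1 on 4 and 7 on X. On 2R, Stwl lay at 6 of the 9 members in bam GKD and at all 9 in WT, beside 56.6% and 55.9% of all genes on that arm. On 3R the counts were 5 and 7 of 13, beside 57.7% and 52.6%.

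**Figure D2:**
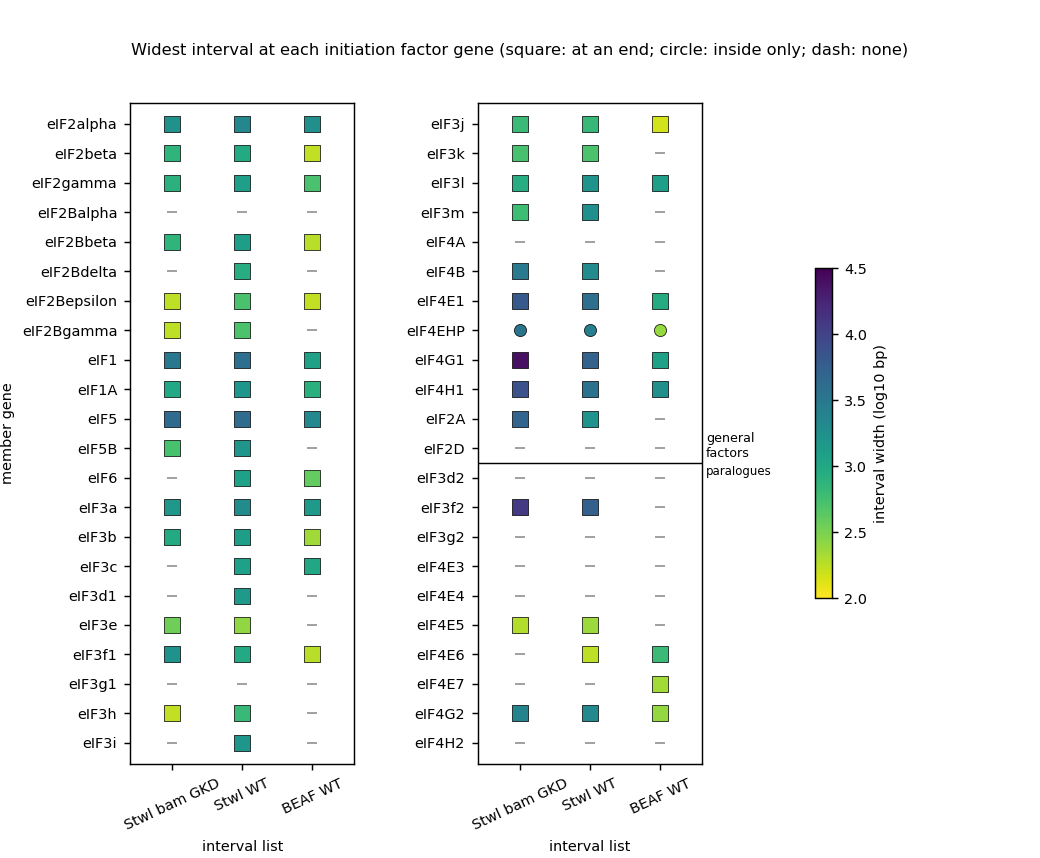
Each line is 1 of the 44 member genes, with general factors above the black line and paralogues under it, and the columns are the 3 lists; squares mark an interval at a gene end, circles an interval inside the gene only, and dashes no interval, with colour for the width of the widest interval (log10 bp). The genes of the eIF2 complex carry a square in all 3 columns. Dashes alone stand at the paralogues eIF3d2, eIF3g2, eIF4E3, eIF4E4 and eIF4H2 and at the general factors eIF2Balpha, eIF2D, eIF3g1 and eIF4A.

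The genes of the eIF2 complex, which carries the initiator tRNA, were each in all 3 lists. eIF2alpha, the subunit whose phosphorylation lowers general translation under stress, lies on X (16445176 to 16446993) next to eIF4H1 (16448665 to 16454972). An interval between these genes reached the windows of both and measured 1745 bp for Stwl in bam GKD, 2194 bp for Stwl in WT and 1801 bp for BEAF. The intervals also touch CG34015, which lies between them, and cannot be assigned to 1 of the 3 genes. At the other end of eIF2alpha, Stwl in WT had an interval of 205 bp that no bam GKD interval overlapped, and BEAF one of 491 bp.

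eIF2gamma (3R, 15257844 to 15263458) had Stwl at its lower end, the one with the smaller coordinate, in both genotypes, in intervals of 807 bp in bam GKD and 1159 bp in WT. At its higher end Stwl was listed in WT only, in 1274 bp, together with 526 bp of BEAF. That end is overlapped by Su(var)3-9, which codes for a histone methyltransferase, and the intervals cannot be divided between the genes. eIF2beta (3L, 12525093 to 12526731) had Stwl at its higher end in 744 bp in bam GKD and 949 bp in WT.

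Among the 5 genes of the eIF2B exchange factor the lists differed from gene to gene. eIF2Bbeta and eIF2Bepsilon, both on X, were in all 3 lists, with Stwl intervals of 745 bp and 176 bp in bam GKD and 1315 bp and 528 bp in WT. eIF2Bgamma had Stwl without BEAF, in 177 bp in bam GKD and 513 bp in WT. eIF2Bdelta had 866 bp of Stwl in WT, placed 102 bp outside the gene over its neighbour roh, and none in bam GKD, and eIF2Balpha had no interval. The nearest interval to eIF2Balpha lay 11049 bp away in bam GKD and 1316 bp away in WT.

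Start codon selection and subunit joining are served by eIF1, eIF1A, eIF5, eIF5B and eIF6. Stwl lay at 4 of these 5 genes in bam GKD, all but eIF6, and at all 5 in WT, beside 61.4% and 55.7% of all genes. eIF1 (3L, 3223341 to 3224650), which keeps the scanning ribosome open, was covered from end to end by 1 Stwl interval of 3131 bp in bam GKD and of 4035 bp in WT. BEAF had 3 intervals there, the widest of 1211 bp. eIF5 (X, 15987008 to 15991974), the GTPase-activating factor of eIF2, had the widest BEAF interval among the members, 2121 bp, wider than or equal to 99.2% of that list. Its widest Stwl intervals were 4283 bp in bam GKD and 4258 bp in WT. They reach the neighbouring homeobox gene exd and also cover CG46312, which lies within eIF5.

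eIF1A (3R, 18274665 to 18283005) had Stwl at its lower end in 1013 bp in bam GKD and 1220 bp in WT, with BEAF in 818 bp. At its higher end Stwl was listed in WT only, in 1547 bp. That interval also touches CG14312, which overlaps this end, and CG8064, and cannot be divided between the genes. eIF5B (3L, 3428658 to 3460977), the subunit joining GTPase, had Stwl at its higher end in 529 bp in bam GKD and 1568 bp in WT, and no BEAF within 10480 bp. eIF6, which keeps the large ribosomal subunit from joining too early, had 1182 bp of Stwl in WT, beginning 24 bp beyond the gene. BEAF lay there in intervals of 399 bp and 147 bp, while bam GKD intervals came no nearer than 873 bp. The gene ytr overlaps both ends of eIF6 and so spans it. The WT intervals of 1182 bp, 399 bp and 147 bp all touch ytr too and cannot be divided between the genes.

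Of the 16 genes of the eIF3 scaffold, 10 had Stwl in bam GKD (62.5%, beside 61.4% of all genes), 13 had Stwl in WT (81.2%, beside 55.7%) and 6 had BEAF (37.5%, beside 28.1%). The genes in all 3 lists were eIF3a, eIF3b, eIF3f1, eIF3j and eIF3l. At eIF3a (3R, 4429798 to 4433895), the largest subunit's gene, Stwl lay at both ends in both genotypes, with widest intervals of 1511 bp in bam GKD and 1968 bp in WT, and BEAF lay at the higher end in 1424 bp. eIF3g1, the general copy of the g subunit on X, had no interval at its ends, the nearest being 5115 bp away in bam GKD, 4873 bp in WT and 4850 bp for BEAF.

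Within eIF3 each paralogue can be set beside its general counterpart. eIF3d1 had Stwl in WT only, in 1439 bp, and eIF3d2 (3R, 12192703 to 12195011) had no interval nearer than 18636 bp in bam GKD, 26636 bp in WT and 155413 bp for BEAF. eIF3f1 was in all 3 lists, and eIF3f2 (2R, 6200853 to 6201956) had Stwl in both genotypes without BEAF. The intervals at eIF3f2 were broad, 11796 bp in bam GKD and 5592 bp in WT, and also cover Ptr and CG30432. The WT interval ended 196 bp short of the gene. eIF3g1 and eIF3g2 were both without an interval at an end. eIF3g2 (3R, 20408265 to 20409243) is overlapped by the gene Gfrl, and its nearest intervals were 31323 bp away in bam GKD, 76528 bp in WT and 79264 bp for BEAF.

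Among cap-binding genes, eIF4E1 (3L, 9399618 to 9402460), the general cap-binding protein, was covered from end to end by 1 Stwl interval of 6356 bp in bam GKD. In WT the Stwl intervals at its ends were separate, 4068 bp and 2007 bp wide, and covered 60.8% of the gene. BEAF had 778 bp at the lower end and 932 bp at the higher end.

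The 5 eIF4E copies had few intervals, and the Stwl intervals among them were narrow. eIF4E5 (3L, 7894880 to 7896009), active in the testis, had Stwl intervals of 193 bp and 192 bp in bam GKD, 1 at each end. In WT it had 1 of 236 bp at the higher end. The 236 bp and 192 bp intervals lay in the flank without touching the gene, and the 236 bp interval reached the neighbour pbl. The 193 bp interval crossed the lower end and also touched CG32365, so it cannot be assigned to 1 gene. The lower end of eIF4E5 was the only one of the 88 member ends with Stwl in bam GKD and not in WT. eIF4E6 (3R, 29026439 to 29027174) had 176 bp of Stwl in WT, the smallest width in the WT Stwl list. Its BEAF intervals were 243 bp and 642 bp wide, the wider one at or above 86.2% of the BEAF list. No bam GKD interval lay within 6839 bp of eIF4E6. It was the only one of the 20 members with both Stwl and BEAF in WT at which the widest BEAF interval was wider than the widest Stwl interval.

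eIF4E7 (X, 1158599 to 1162389) was the only member with BEAF and no Stwl in WT, in 224 bp lying inside the gene and 343 bp from its higher end. eIF4E3 (3L, 8229224 to 8230568), which is required for male meiosis, and eIF4E4 (3L, 6664224 to 6665641) had no interval nearer than 17582 bp and 23165 bp in bam GKD and 30808 bp and 34412 bp in WT. eIF4EHP (3R, 24063077 to 24108960), a cap-binding repressor of specific maternal mRNAs and the longest member at 45884 bp, had intervals inside the gene and at neither end. Stwl had 7 there in bam GKD, covering 31.3% of the gene, and 3 in WT, covering 7.27%, and BEAF had 1 of 247 bp. The widest of the WT Stwl intervals, 2760 bp, also touches Syx1A and cannot be divided between the genes. eIF4EHP was the only member with intervals inside and none at an end. That state was found in 2.58% of all genes for Stwl in bam GKD, 2.26% for Stwl in WT and 3.2% for BEAF.

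eIF4G1 (4, 915297 to 930715), the scaffold that joins eIF4E to the ribosome, had the widest Stwl interval of any member, 25143 bp in bam GKD, which runs on across mGluR into 4E-T, the gene of the eIF4E transporter. In WT the widest at its ends was 5167 bp, and Stwl covered more of the gene itself, 74.6%, than in bam GKD, 44.8%. Stwl was called in both genotypes at all 80 protein-coding genes of chromosome 4 in the annotation, so this call is shared by the whole arm. eIF4G2 (3R, 23808285 to 23819237), the copy required for male germ cell differentiation, was the only paralogue in all 3 lists. It had Stwl intervals of 2429 bp and 1122 bp in bam GKD and 2094 bp and 1125 bp in WT, and 255 bp of BEAF, at ends that are both overlapped by CG33111.

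eIF4A (2L, 5981764 to 5985909), the helicase of the cap-binding complex, had no interval nearer than 2547 bp in bam GKD, 3001 bp in WT and 31907 bp for BEAF. eIF4B, a helper of eIF4A in the pericentric part of 3L, had Stwl at its higher end in 2988 bp in bam GKD and 2026 bp in WT. eIF4H1, a related RNA-binding factor, had Stwl at both ends, the widest intervals of 7477 bp in bam GKD and 3573 bp in WT reaching into the sodium channel gene para. Its copy eIF4H2 (3R, 30726087 to 30728052) had no interval nearer than 55711 bp in any list. eIF2A had 5080 bp in bam GKD and 1652 bp in WT, and eIF2D had no interval at an end.

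**Figure D3:**
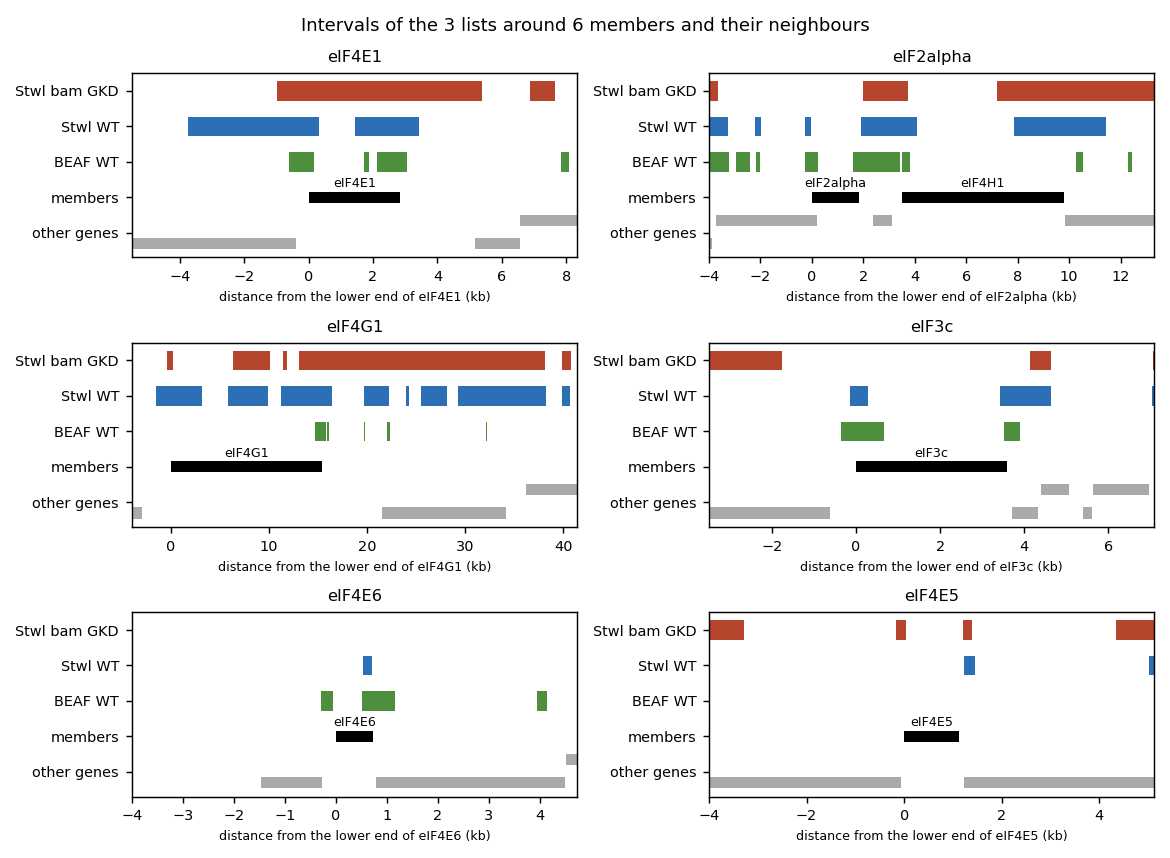
Intervals of the 3 lists (coloured bars) around eIF4E1, eIF2alpha with eIF4H1, eIF4G1, eIF3c, eIF4E6 and eIF4E5 (black bars, with other protein-coding genes in grey), plotted by distance in kb from the lower end of the named gene and cut at the panel edge. The bam GKD interval spans all of eIF4E1, eIF3c has Stwl and BEAF at both ends in WT and no bam GKD interval within 500 bp, and eIF4E6 has no bam GKD interval in view.

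Stwl in bam GKD and in WT was compared at each member to ask how far occupancy in undifferentiated and in differentiated stages met at these genes. Stwl lay at an end in both genotypes at 27 members (61.4%, beside 49.6% of all protein-coding genes). It lay at an end in neither genotype at 11 (25%, beside 32.4%), in bam GKD only at none of the 44, where 11.8% of all genes did, and in WT only at 6 (13.6%, beside 6.18%). The 6 were eIF2Bdelta, eIF3c, eIF3d1, eIF3i, eIF4E6 and eIF6. At eIF2Bdelta, eIF3d1, eIF3i and eIF6 the WT intervals lay in the flank without touching the gene. Counting the gene body alone also gave 6, but it dropped those genes and added eIF2Bbeta, eIF2Bepsilon, eIF2Bgamma and eIF3l. With the interval's centre required in the window there were 9, again with genes lost and gained. With 33 members called in WT, at most 11 could have been called in bam GKD only.

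Read from the other side, 27 of the 33 members with Stwl in WT (81.8%) also had it in bam GKD, beside 88.9% of all genes with Stwl in WT. Of the 11 members without Stwl in WT none had it in bam GKD, beside 26.7% of all such genes. Counted by single ends, 37 of 88 member ends had Stwl in both genotypes, 1 in bam GKD only and 12 in WT only. Over the 27844 ends of all genes, 33.4% had Stwl in both, 11.5% in bam GKD only and 5.81% in WT only.

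At 4 of these 6 genes the genotypes differed in how far an interval reached. At eIF3c, on its higher side, and at eIF3d1, eIF3i and eIF6 a WT interval overlapped a bam GKD interval that stopped 534 bp, 1354 bp, 773 bp and 873 bp from the gene. At eIF2Bdelta and eIF4E6 no bam GKD interval overlapped the WT interval, and the nearest lay 3174 bp and 6839 bp away. A window of 1000 bp left 3 members with Stwl in WT only, eIF2Bdelta, eIF3d1 and eIF4E6. With equal numbers of the widest intervals of each list, which removed bam GKD intervals narrower than 1184 bp and WT intervals narrower than 521 bp, 16 members had Stwl in WT only. That unequal cut left Stwl at 27.3% of members in bam GKD, beside 33.5% of all genes, and at 63.6% in WT, beside 42.3%. The share of all genes with Stwl in WT only was not computed under it.

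Of the 47 separate WT intervals at member ends, 40 overlapped a bam GKD interval (85.1%, beside 86.7% of WT intervals at the ends of all genes). The 7 that did not lay at eIF1A, eIF2Bdelta, eIF2alpha, eIF2gamma, eIF3c, eIF3l and eIF4E6. Of the 35 separate bam GKD intervals at member ends, 34 overlapped a WT interval (97.1%, beside 75.4% at the ends of all genes). The exception was the 193 bp interval at the lower end of eIF4E5.

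At the 27 members with Stwl in both genotypes, the widest bam GKD interval was narrower than the widest WT interval at 16 and wider at 11. The median ratio of bam GKD to WT width was 0.795, beside 0.999 over the 6899 genes with Stwl in both. At eIF1A, eIF2gamma and eIF4E5 the widest intervals of the genotypes lay at different ends, so their ratios compare different sites. Ratios ran from 0.261 at eIF3h, which codes for an eIF3 subunit (171 bp in bam GKD, 655 bp in WT), to 4.87 at eIF4G1. The 171 bp at eIF3h is the smallest width in the bam GKD list. Widths differed in both directions, and eIF2A, eIF3f2, eIF4H1, eIF3f1 and eIF4E1 also had intervals more than 1.5 times wider in bam GKD. At eIF5 the widths differed by 25 bp. Widths depend on depth and on the joining of neighbouring intervals, and depth is unknown.

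**Figure D4:**
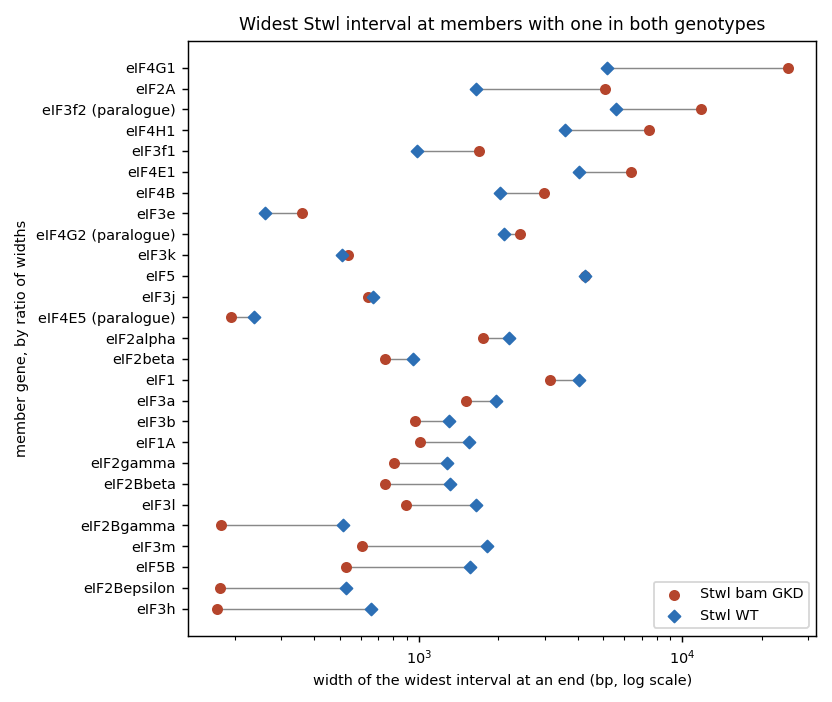
Width in bp (log axis) of the widest Stwl interval at an end in bam GKD (circles) and in WT (diamonds) for the 27 members with Stwl in both, ordered by the ratio of widths. The bam GKD interval is the wider one at 11 genes, with eIF4G1 at the top (25143 bp and 5167 bp), and the narrower one at 16, with eIF3h at the bottom (171 bp and 655 bp).

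Stwl and BEAF in WT were set side by side to ask how far the factor and the boundary protein shared these genes. Both lay at an end of 20 members (45.5%, beside 26.4% of all genes), Stwl without BEAF at 13 (29.5%, beside 29.3%) and BEAF without Stwl at 1 (2.27%, beside 1.71%). Among members with Stwl in WT, 60.6% had BEAF, beside 47.4% of all genes with Stwl in WT. The 13 with Stwl alone included 7 eIF3 genes, namely eIF3d1, eIF3e, eIF3f2, eIF3h, eIF3i, eIF3k and eIF3m.

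At single ends, 27 of the 88 had both (30.7%, beside 15% of all ends) and 2 had BEAF alone, at eIF4E6 and eIF4E7. Of the 47 WT Stwl intervals at member ends 27 overlapped a BEAF interval (57.4%, beside 39.6% at the ends of all genes). Of the 35 BEAF intervals 30 overlapped a WT Stwl interval (85.7%, beside 83.2%). The 5 that did not were between 147 bp and 243 bp wide and lay at eIF2beta, eIF3f1, eIF4E6, eIF4E7 and eIF6. Other samples of the series, including any control profiles, were not analysed here, and background shared by the lists cannot be told apart from shared sites.

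Paralogues without a call in a list also lay far from the intervals of that list. The first medians are over all members of each class, called or not, and from the nearer gene end. To the nearest Stwl interval in bam GKD the median distance was 33.5 bp for general factors and 18109 bp for paralogues. In WT it was 0 bp and 24923 bp, and for BEAF 170.5 bp and 23272 bp. Among genes without a call, measured from the gene itself so that an interval inside the gene counts as 0 bp, the 10 general factors without Stwl in bam GKD lay a median of 1950.5 bp from an interval, the 7 paralogues 23165 bp, and all 5376 such genes 4148 bp. By the same measure, the medians for the 5 general factors and 6 paralogues without Stwl in WT were 1316 bp and 32610 bp, beside 6614.5 bp over all 6162 such genes.

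**Figure D5:**
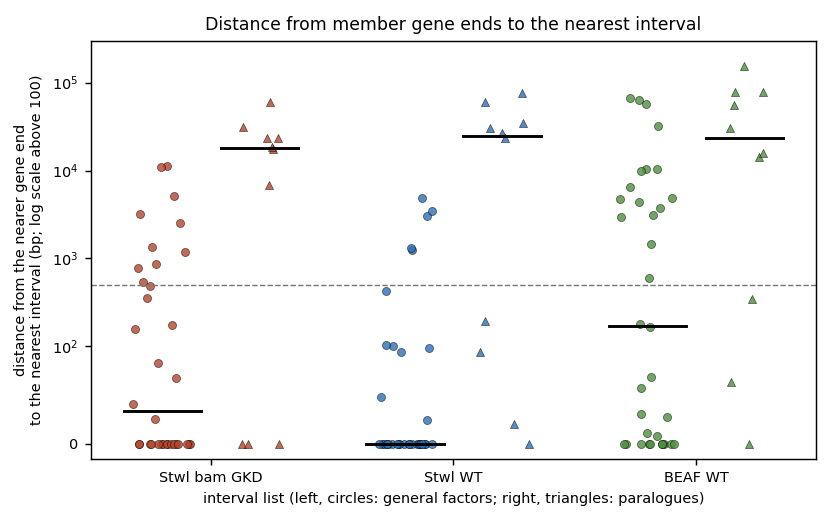
Distance in bp from the nearer gene end to the nearest interval (log scale above 100 bp) for general factors (left, circles) and paralogues (right, triangles) in each list; each point is 1 gene, black bars are medians, and the dashed line is the 500 bp limit of a call. The paralogue medians, 18109 bp, 24923 bp and 23272 bp, lie far above those of the general factors.

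Few members lay close to the limit of 500 bp. Just inside it were eIF3e, whose intervals lay 484 bp from the gene in bam GKD and 421 bp in WT and reach the neighbour CG9674, and, inside the gene, eIF3h in bam GKD (357 bp from the end) and eIF4E7 for BEAF. Just outside were eIF3c in bam GKD (534 bp) and eIF2A for BEAF (592 bp). Stwl intervals lay in the flank without touching the gene at 7 of the 27 called members in bam GKD and 9 of the 33 in WT, or 25.9% and 27.3%, beside 25.6% and 22.1% of all called genes.

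Genes around the members carried intervals too. Among up to 5 protein-coding genes to each side, a median of 8 had Stwl at an end in bam GKD around general factors and 4.5 around paralogues, beside 6 around all genes. For WT the medians were 8 and 3, beside 6, and for BEAF 3.5 and 1.5, beside 2. Around eIF3g2 and around eIF4H2, 1 of 10 neighbours had Stwl in bam GKD and 1 in WT. The 10 neighbours spanned a median of 59314.5 bp around general factors and 151156 bp around paralogues, beside 76802 bp around all genes. Another protein-coding gene overlapped or lay within 500 bp of 77.9% of the ends of general factors and 45% of the ends of paralogues, beside 63.9% of all ends. At ends with another gene so near, Stwl in bam GKD lay at 43.4% for general factors and 44.4% for paralogues, beside 45% of all such ends, and Stwl in WT at 62.3% and 44.4%, beside 43.2%. At ends with no other gene so near, Stwl in bam GKD lay at 10 of 15 for general factors (66.7%) and at 1 of 11 for paralogues (9.09%), beside 44.7% of all such ends. Stwl in WT lay there at 11 of 15 for general factors (73.3%) and at 1 of 11 for paralogues (9.09%), beside 32.1% of all such ends. Median gene length was 2405.5 bp for general factors and 1381.5 bp for paralogues, beside 2163 bp for all genes, and its part in the calls was not tested.

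Genes that act with the initiation factors but carry other symbols were taken from a list of 20, of which 19 were matched to the annotation. Stwl lay at an end of 15 in bam GKD and 16 in WT, and BEAF at 9, beside 61.4%, 55.7% and 28.1% of all genes. Thor, the eIF4E-binding repressor of the insulin and TOR pathway, had 312 bp in bam GKD and 914 bp in WT. The germline repressor cup, which holds eIF4E on repressed mRNAs, had Stwl inside the gene and at no end in both genotypes. A Stwl interval of 3031 bp reached an end of Lk6, the kinase of eIF4E, in bam GKD. In WT, Stwl lay inside Lk6 and at neither end, while BEAF reached an end in 213 bp. For raptor and S6k, Stwl was called in WT and not in bam GKD, where S6k had it inside the gene. The eIF2alpha kinase gene Gcn2 had no interval in any list. On a further list of elongation and release factors Stwl was called at all 9 genes in bam GKD and in WT, and BEAF at 5, beside the same shares of all genes.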

How the data were processed

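For each list the authors deposited start and end coordinates of intervals (dm6), without any score, strand or count. MACS2 2.1.0 and Bowtie2 2.2.8 are named in the submitters' processing notes, beside SAMtools 1.9, deepTools 3.2.1, Trim Galore 0.6.6 and FastQC 0.11.8. The sources used here do not give their settings, the control library or whether duplicates were pooled. Samples were grouped by title. The other 21 samples were not analysed here. No gap between Stwl intervals was under 1001 bp in either genotype, while BEAF intervals came as near as 76 bp to each other, so the lists may differ in how neighbours were joined. Depth is unknown.

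Genes came from a RefSeq annotation table of the Release 6 assembly (17872 genes), which holds no strand, so the 5-prime end of a gene was not told from the other. Coordinates are 1-based. Calls needed an overlap of at least 1 bp with an end window and were made in Python 3.11.15 with pandas 2.3.3, after the overlap code was tested on simulated data. Members are counted beside the same share of all protein-coding genes, with no test, since each group has 1 list and genes are not replicates. All members could be named. Members, gene lists and alternatives were chosen with earlier results of these data known. The symbol Tor was not matched.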

Additional observations from a re-analysis of the deposited data

How the results depend on the processing

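Of 110 values recomputed under 9 alternatives, 92 stayed within 1.5 times the reported count and 18 did not. Joining intervals across gaps of 1000 bp or less changed none, but it could not. No gap between Stwl intervals was under 1001 bp, and a joined BEAF gap is too short to hold an end window. The equal-number setting kept all 5083 BEAF intervals, so its counts of BEAF alone were fixed too. Both are counted among the 92. Equal numbers of the widest intervals gave 12 members with Stwl in bam GKD and 12 in both genotypes (27 reported for each), 10 general factors with Stwl in bam GKD (24 reported), 2 paralogues with Stwl in WT (4 reported) and 16 members with Stwl in WT only (6 reported). The wider 50% of each list gave 16 members with Stwl in bam GKD, 16 in both genotypes, 14 general factors with Stwl in bam GKD, 2 paralogues with Stwl in WT and 13 members with Stwl and BEAF in WT (20 reported). These settings remove narrow intervals by construction, and the share called in bam GKD was lower for all genes too: 27.3% of members beside 33.5% of all genes with equal numbers, and 36.4% of members beside 39.4% of all genes with the wider 50%. With the interval's centre required in the window, 17 members had Stwl in bam GKD (38.6%, beside 41.8% of all genes), 16 in both genotypes and 1 in bam GKD only (0 reported), and 1 paralogue had Stwl in bam GKD (3 reported). Counting the gene body without flanks gave 2 members with Stwl in bam GKD only, eIF3f2 and eIF4E5, and 2 paralogues with Stwl in WT. It left 6 members with Stwl in WT only, though not the same 6, so a stable count can hide a change of genes. A window of 1000 bp gave 3 members with Stwl in WT only, and a strict list of 6 paralogues gave 1 with BEAF (3 reported). The alternative with the 5-prime end alone was not run, since no strand was held. No paired analysis was possible because each group has 1 sample and the labels give no replicate number.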
